A study of Homo sapiens with 12 samples.

Results

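The genes described here are 30 human genes known as direct transcriptional targets of the tumour suppressor p53, taken by gene symbol from a gene-level count table of 63241 rows. All 30 had a row, and 28 passed the low-count filter that left 15614 genes for testing; FAS and SPATA18 did not pass. The RNA came from 2 established human testicular germ cell tumour lines, TCam-2 (seminoma) and 2102 EP (embryonal carcinoma), both tagged wild type in the labels. There were 4 groups of 3 libraries: TCam-2 cells exposed for 24 h to 15 µM I-BRD9, TCam-2 cells given the solvent DMSO, 2102 EP cells exposed for 24 h to 15 µM I-BRD9, and 2102 EP cells given DMSO. The drug I-BRD9 blocks the acetyl-lysine pocket of BRD9, which belongs to the non-canonical BAF complex, a remodeller of chromatin. Each tumour type was represented by a single line, dose and time, the groups held replicates called biological, and bulk RNA cannot tell fewer expressing cells from less RNA per cell.

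p53 is a transcription factor held at a low level in unstressed cells because MDM2, itself a p53 target, marks it for degradation. After DNA damage or other stress p53 accumulates, binds response elements made of paired decamers, and raises genes that stop the cell cycle, repair DNA, change metabolism or start apoptosis. Germ cell tumours are known for their sensitivity to DNA-damaging chemotherapy. The libraries read RNA only, so neither p53 protein nor its binding was measured.

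With I-BRD9, 13 of the 28 tested targets fell and 6 rose in TCam-2, while 5 fell and 8 rose in 2102 EP. GDF15, AEN, MDM2 and PPM1D fell in both lines, and TP53INP1, BTG2, TP53I3, GADD45A and CCNG1 rose in both. PERP and RPS27L passed the test in opposite directions in the 2 lines. Of the targets that fell in TCam-2, 8 did not pass the test in 2102 EP: PHLDA3, POLH, ASCC3, DDB2, FDXR, TRIAP1, SESN1 and TIGAR. Each line thus held targets that rose, targets that fell and targets that did not pass.

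Those counts were read against the whole transcriptome, in which many genes changed. In TCam-2, 31.8% of all genes tested passed an adjusted p of 0.05 in either direction (15.3% higher, 16.5% lower), and the corresponding shares in 2102 EP were 36.8% (18.2% higher, 18.6% lower). The median log2 fold change of the 28 targets was −0.39 in TCam-2 and 0.05 in 2102 EP, against medians over all genes of 0.01 and 0.00. Values of all 3 I-BRD9 libraries lay outside the range of the 3 DMSO libraries for 22 targets in TCam-2 (6 above, 16 below), where this held for 45.7% of all genes. In 2102 EP the ranges were separate for 15 targets (8 above, 7 below), against 46.3% of all genes. Unless another measure is named, values below are CPM, a library's counts scaled to a common total, listed for replicates 1, 2 and 3, and the p-values are adjusted by Benjamini-Hochberg over all genes in edgeR's quasi-likelihood test. Fold changes are log2, I-BRD9 over DMSO, with their standard error (SE).

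**Figure D1:**
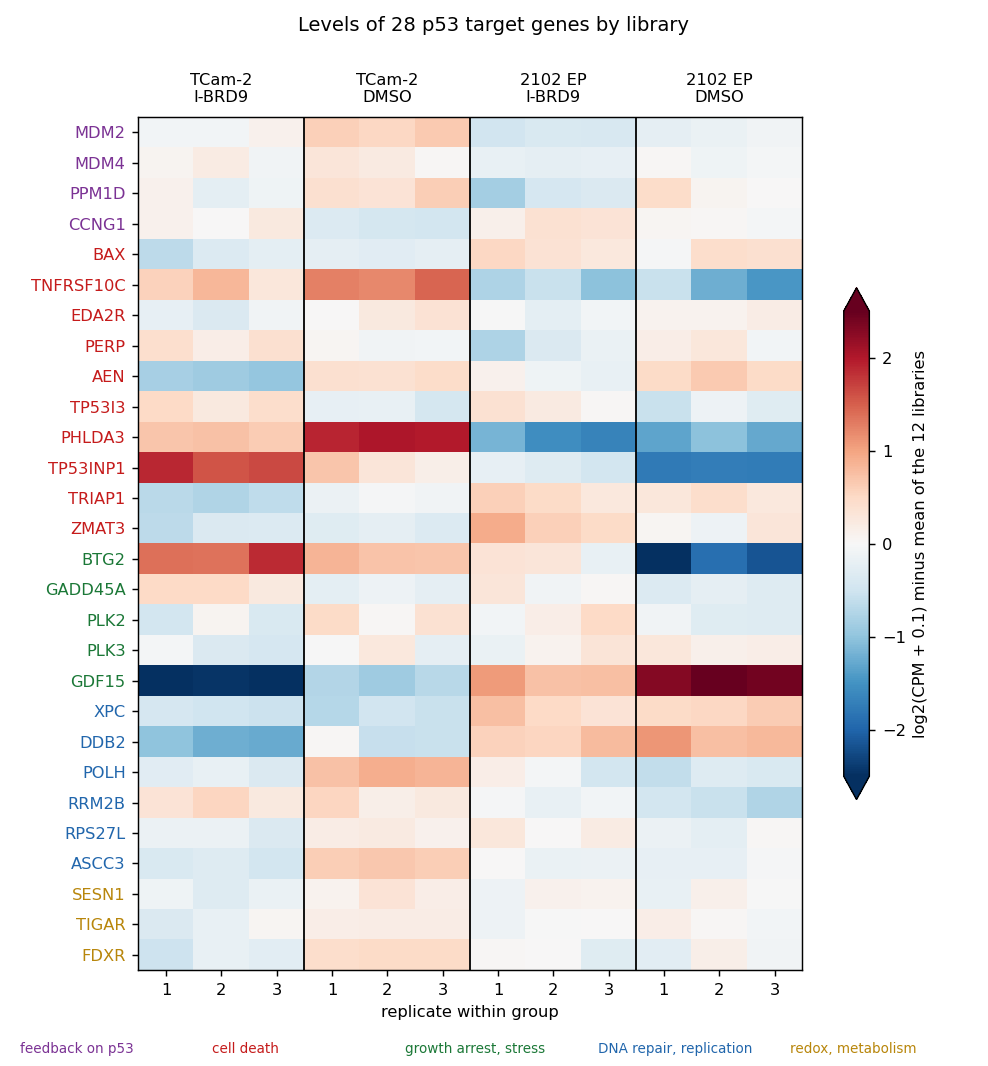
Heat map of the 28 tested p53 targets (rows, grouped by role) in the 12 libraries (columns, grouped by line and treatment), with colour for log2(CPM + 0.1) of a library minus the mean of that gene over all 12. GDF15 has its lowest values in TCam-2 with I-BRD9, and PHLDA3 and BTG2 are higher in TCam-2 than in 2102 EP whatever the treatment.

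The libraries held between 7290335 and 10053366 estimated counts each, so that 3 counts corresponded to 0.297 to 0.409 CPM, and replicates of a group correlated at 0.971 to 0.981 across genes. Under DMSO, 8 of 9 seminoma-list genes were higher in TCam-2, and DND1 was lower by 6.91 ± 0.46 (SE, edgeR adjusted p = 9.01e-12). Of 8 embryonal carcinoma-list genes 6 were lower in TCam-2, and POU5F1 and NANOG, which both lists hold, were higher. Among all genes tested under DMSO, 31.7% were higher and 30.8% lower in TCam-2. Reads of POU5F1, TDGF1 and NANOG were partly shared with other genes. This gave fractional counts in 12 libraries for POU5F1 and TDGF1 and in 8 for NANOG, so their levels are uncertain. With I-BRD9, 7 of the 8 embryonal carcinoma-list genes fell in TCam-2 and 8 in 2102 EP, and of the seminoma list 6 fell and KIT rose in TCam-2 and 4 fell in 2102 EP. Among all genes tested, 16.5% fell and 15.3% rose in TCam-2, and 18.6% fell and 18.2% rose in 2102 EP. SOX2, an embryonal carcinoma factor, averaged 6.08 ± 1.85 CPM with I-BRD9 and 17.1 ± 2.28 CPM with DMSO in TCam-2, against 256 ± 4.74 and 468 ± 21.1 CPM in 2102 EP (SD, n = 3 each). SOX17, a seminoma factor, averaged 45.3 ± 3.12 CPM with I-BRD9 and 193 ± 6.66 CPM with DMSO in TCam-2, and had 0 and 2 counts summed over the 3 libraries of each 2102 EP group. Of 7 fibroblast genes 4 were tested, of which 2 fell and 2 did not pass in each line. COL1A1 and PDGFRB, which did not pass, changed by 0.32 ± 0.14 and 0.67 ± 0.46 (SE) in 2102 EP. In TCam-2 these 2 genes changed by −0.25 ± 0.14 and −1.21 ± 0.61. THY1 made up most of the list's sum in 2102 EP, with means of 119 CPM with I-BRD9 and 220 CPM with DMSO. THY1 fell by 3.65 ± 0.17 (SE, edgeR adjusted p = 2.15e-13) in TCam-2 and 0.89 ± 0.10 (edgeR adjusted p = 1.56e-07) in 2102 EP, and COL1A2 by 0.69 ± 0.13 (edgeR adjusted p = 0.000326) in TCam-2 and 1.32 ± 0.40 (edgeR adjusted p = 0.0132) in 2102 EP. The list summed to 89.7 to 136 CPM with I-BRD9 and 191 to 198 CPM with DMSO in TCam-2, and to 133 to 157 CPM with I-BRD9 and 230.3 to 257 CPM with DMSO in 2102 EP; DCN had 3 counts with I-BRD9 in TCam-2 and 0 in the other groups. Of 5 blood cell genes 2 were tested, and CD68 rose by 2.09 ± 0.58 (edgeR adjusted p = 0.00693) in 2102 EP. That list summed to 1.16 to 1.98 CPM with I-BRD9 and 1.17 to 2.71 CPM with DMSO in TCam-2, and to 2.59 to 4.41 CPM with I-BRD9 and 1.37 to 2.17 CPM with DMSO in 2102 EP. CD3E had 0 counts in every library. The part of these markers in the results was not tested. BRD9, whose protein the drug binds, changed by −0.21 ± 0.09 (SE, edgeR adjusted p = 0.0965) in TCam-2 and by −0.26 ± 0.09 (edgeR adjusted p = 0.0328) in 2102 EP, where the call was lost on leaving out any of 4 libraries (0.0645 to 0.177), with upper-quartile scaling (0.0712) and with only the 6 libraries compared (0.0741). In TCam-2 it passed with only the 6 libraries compared (0.0335) and without 2102 EP I-BRD9 replicate 1 (0.0423).

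Short promoter windows show where the letters of the p53 consensus decamer occur in the targets. RefSeq promoters on GRCh38.p14, each from 250 bases before to 50 bases after a transcription start, were matched for 24 of the 30 targets (36 promoters). The decamer was found in 7 of these 36 promoters (19.4%), against 2329 of 35116 promoters of all genes (6.63%). The motif is its own reverse complement, so a single scan covered both strands, and no other motif was searched. Both decamers of a full element, at most 13 bases apart, were present in 1 target promoter (2.78%), that of DDB2, against 10 promoters of all genes (0.0285%). The 7 windows are shown because they hold these matches; each is read in the direction of its gene with the matching letters in capitals. A match is a run of letters, not evidence of binding.
AEN: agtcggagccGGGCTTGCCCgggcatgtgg
FAS: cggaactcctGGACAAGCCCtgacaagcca
PLK2: tggcgggacaAGACTTGCTTcccggccacg
DDB2: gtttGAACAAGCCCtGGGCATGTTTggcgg
RPS27L: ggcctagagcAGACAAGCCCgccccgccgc
SESN1: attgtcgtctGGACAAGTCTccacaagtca
FDXR: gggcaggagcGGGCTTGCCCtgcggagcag
The windows lie on GRCh38.p14 at chr15:88621296-88621325 on the plus strand (AEN), chr10:88991299-88991328 on the plus strand (FAS), chr5:58460199-58460228 on the minus strand (PLK2), chr11:47214975-47215004 on the plus strand (DDB2), chr15:63157517-63157546 on the minus strand (RPS27L), chr6:109009018-109009047 on the minus strand (SESN1) and chr17:74872986-74873015 on the minus strand (FDXR). Among the 6 of these genes that were tested, 5 fell in TCam-2 and PLK2 did not pass the test; in 2102 EP, 1 fell (AEN) and 1 rose (RPS27L). A gene was counted as holding the decamer if any of its matched promoters did, and SESN1, DDB2 and FDXR also had matched promoters without it. Among the 16 tested targets whose matched promoters lacked the decamer, 6 fell and 4 rose in TCam-2, and 4 fell and 4 rose in 2102 EP. Over all genes with a promoter, 17.8% of those with the decamer and 17.5% of those without it fell in TCam-2, and the shares in 2102 EP were 21.4% and 19.7%. The shares that rose, with and without the decamer, were 15.7% and 16.4% in TCam-2 and 16.1% and 19.1% in 2102 EP.

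The feedback arm comprises the genes through which p53 limits itself. MDM2 (ENSG00000135679, chromosome 12, 68808176 to 68850686, plus strand in GENCODE 29 on GRCh38) encodes the ubiquitin ligase that degrades p53. In TCam-2, MDM2 had 132, 132 and 149 CPM with I-BRD9 and 208, 198 and 216 CPM with DMSO. In 2102 EP, MDM2 had 98.6, 106 and 104 CPM with I-BRD9 and 118, 123 and 129.8 CPM with DMSO. All I-BRD9 libraries were below all DMSO libraries in each line. MDM2 fell by 0.59 ± 0.08 (SE, edgeR adjusted p = 4.21e-06) on the log2 scale in TCam-2 and by 0.26 ± 0.08 (edgeR adjusted p = 0.0126) in 2102 EP. The decrease in 2102 EP missed the threshold without DMSO replicate 3 (edgeR adjusted p = 0.0623), and the difference between the lines was −0.32 ± 0.11 (edgeR adjusted p = 0.0594). That difference passed without 2102 EP DMSO replicate 3 (edgeR adjusted p = 0.0484), 2102 EP I-BRD9 replicate 1 (0.0211) or TCam-2 I-BRD9 replicate 3 (0.0315). MDM2 shares exon bases with an antisense gene, CPM (carboxypeptidase M), which had 518 counts over all libraries against 14925 for MDM2; use of strand in counting was not given in the sources used here.

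PPM1D encodes WIP1, a phosphatase that removes activating phosphates from p53 and its kinases. In TCam-2, PPM1D had 10.7, 8.41 and 9.28 CPM with I-BRD9 and 13.1, 12.6 and 15.3 CPM with DMSO. In 2102 EP, PPM1D had 5.45, 7.41 and 7.7 CPM with I-BRD9 and 13.8, 10.4 and 9.97 CPM with DMSO. The treated libraries lay below the controls in both lines, with changes of −0.53 ± 0.18 (SE, edgeR adjusted p = 0.0322) in TCam-2 and −0.73 ± 0.19 (edgeR adjusted p = 0.00494) in 2102 EP. At these low counts the call rested on single libraries: in TCam-2 it was lost without DMSO replicate 1 (edgeR adjusted p = 0.0542), DMSO replicate 3 (0.133), I-BRD9 replicate 2 (0.132) or I-BRD9 replicate 3 (0.0833). In 2102 EP it was lost without DMSO replicate 1 (edgeR adjusted p = 0.0526).

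CCNG1, cyclin G1, which binds a phosphatase that acts on MDM2, moved the other way from MDM2. In TCam-2, CCNG1 had 87.2, 82.5 and 96.7 CPM with I-BRD9 and 64.2, 60.0 and 59 CPM with DMSO. In 2102 EP, CCNG1 had 89.3, 105 and 103 CPM with I-BRD9 and 84.3, 83 and 78.9 CPM with DMSO. The treated libraries were above the controls in both lines. CCNG1 rose by 0.54 ± 0.09 (SE, edgeR adjusted p = 7.05e-05) in TCam-2 and by 0.27 ± 0.09 (edgeR adjusted p = 0.019) in 2102 EP. The call in 2102 EP was lost without DMSO replicate 3 (edgeR adjusted p = 0.0675), I-BRD9 replicate 2 (0.0811) or I-BRD9 replicate 3 (0.0548). MDM4, the MDM2 relative that masks the p53 activation domain, did not pass the test in either line, with −0.12 ± 0.10 in TCam-2 (95% interval −0.34 to 0.10, edgeR adjusted p = 0.415) and −0.15 ± 0.11 in 2102 EP (−0.38 to 0.07, edgeR adjusted p = 0.278). None of the 4 feedback genes passed the test of the difference between the lines, which 13.1% of all genes passed.

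**Figure D2:**
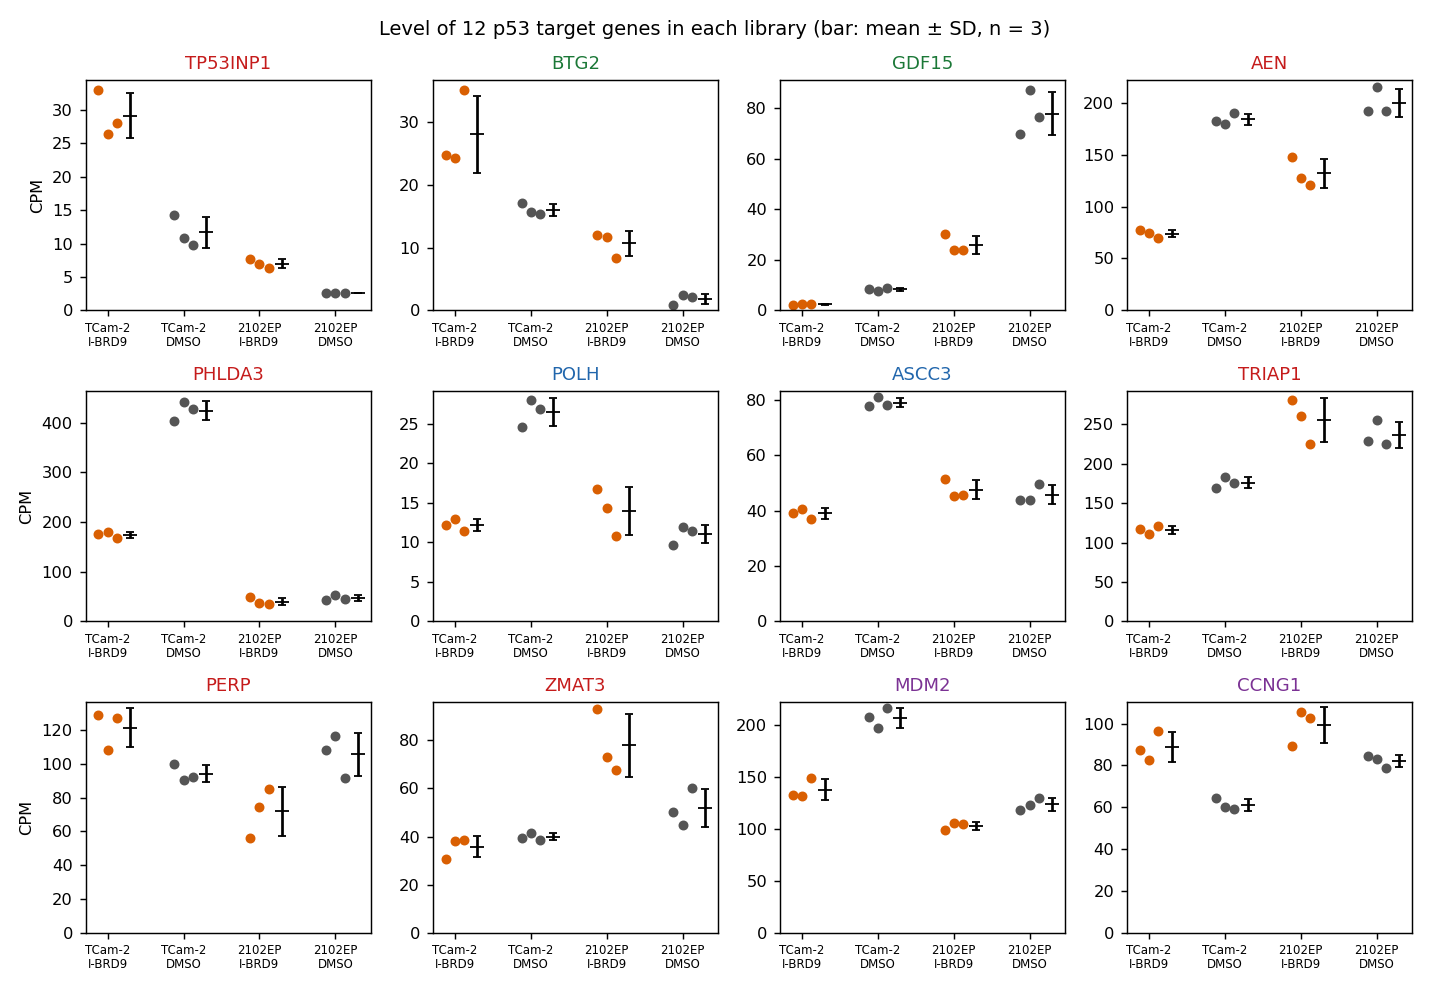
CPM of selected p53 targets in each of the 12 libraries (points), with the mean ± SD beside each group of 3; the vertical axis starts at 0 and has its own scale for each gene. AEN, GDF15 and MDM2 sit lower with I-BRD9 than with DMSO in both lines, whereas PHLDA3, ASCC3 and POLH have separate groups in TCam-2 and overlapping groups in 2102 EP.

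Of the 12 targets with a role in cell death, 10 were tested: 3 rose and 3 fell in TCam-2, and 3 rose and 2 fell in 2102 EP. Over all genes, 15.3% rose and 16.5% fell in TCam-2, and 18.2% rose and 18.6% fell in 2102 EP. AEN (ENSG00000181026, chromosome 15, 88621296 to 88632282, plus strand), an exonuclease that degrades DNA and RNA during apoptosis, carries the decamer shown above. In TCam-2, AEN had 77.3, 74.2 and 70.1 CPM with I-BRD9 and 182, 179.9 and 189.8 CPM with DMSO. In 2102 EP, AEN had 148, 128 and 121 CPM with I-BRD9 and 192, 215 and 192 CPM with DMSO. No library overlapped between treatments in either line. AEN fell by 1.32 ± 0.09 (SE, edgeR adjusted p = 6.59e-11) in TCam-2 and by 0.60 ± 0.08 (edgeR adjusted p = 7.12e-06) in 2102 EP. The decrease was larger in TCam-2, with a difference of −0.72 ± 0.12 between the lines (edgeR adjusted p = 0.000191).

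PHLDA3 (ENSG00000174307, chromosome 1, 201464383 to 201469237, minus strand) encodes a pleckstrin-homology protein that competes for membrane lipids and so represses AKT, a survival kinase. In TCam-2, PHLDA3 had 176, 180.0 and 168 CPM with I-BRD9 and 404, 441 and 427 CPM with DMSO. In 2102 EP, PHLDA3 had 48.3, 36.7 and 34.1 CPM with I-BRD9 and 43.4, 53.4 and 44.7 CPM with DMSO. The TCam-2 groups were far apart and the 2102 EP groups overlapped. PHLDA3 fell by 1.28 ± 0.10 (SE, edgeR adjusted p = 9.66e-10) in TCam-2, against a change of −0.26 ± 0.11 (edgeR adjusted p = 0.0739) in 2102 EP. The difference of −1.03 ± 0.15 passed the test (edgeR adjusted p = 3.37e-05). Without I-BRD9 replicate 1 the change in 2102 EP passed too, at −0.39 (edgeR adjusted p = 0.00251).

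PERP, a tetraspan membrane protein of desmosomes that p53 induces in apoptosis, moved in opposite directions. In TCam-2, PERP had 129, 108 and 127 CPM with I-BRD9 and 99.9, 90.6 and 92.1 CPM with DMSO. In 2102 EP, PERP had 56.3, 74.2 and 85.1 CPM with I-BRD9 and 108, 117 and 91.8 CPM with DMSO. Treated libraries were above the controls in TCam-2 and below them in 2102 EP. The changes were 0.37 ± 0.12 (SE, edgeR adjusted p = 0.0265) in TCam-2 and −0.55 ± 0.12 (edgeR adjusted p = 0.00165) in 2102 EP, and the difference of 0.92 ± 0.17 passed the test (edgeR adjusted p = 0.00109). PERP was the single target with a higher change in TCam-2 than in 2102 EP by that test. The increase in TCam-2 did not pass without DMSO replicate 1 (edgeR adjusted p = 0.0602), 2 (0.117) or 3 (0.108), or without I-BRD9 replicate 1 (0.127) or 3 (0.0949).

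TP53INP1 (ENSG00000164938, chromosome 8, 94925972 to 94949411, minus strand) encodes a nuclear protein that promotes p53 phosphorylation and autophagy, and was among the most raised targets. In TCam-2, TP53INP1 had 33, 26.4 and 28.1 CPM with I-BRD9 and 14.3, 10.9 and 9.8 CPM with DMSO. In 2102 EP, TP53INP1 had 7.64, 7.01 and 6.36 CPM with I-BRD9 and 2.52, 2.59 and 2.56 CPM with DMSO. The groups were separate in both lines, with increases of 1.32 ± 0.16 (SE, edgeR adjusted p = 1.4e-06) in TCam-2 and 1.45 ± 0.21 (edgeR adjusted p = 1.27e-05) in 2102 EP. Their difference was −0.12 ± 0.26, with a 95% interval of −0.67 to 0.42 (edgeR adjusted p = 0.824).

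TP53I3, also called PIG3, a quinone oxidoreductase linked to reactive oxygen species, also rose in both lines. In TCam-2, TP53I3 had 25, 20.9 and 23.8 CPM with I-BRD9 and 15.2, 15.6 and 12.9 CPM with DMSO. In 2102 EP, TP53I3 had 22.9, 20.6 and 18.1 CPM with I-BRD9 and 12, 16.2 and 14.3 CPM with DMSO. All treated libraries exceeded all controls, with increases of 0.67 ± 0.15 (SE, edgeR adjusted p = 0.00133) in TCam-2 and 0.53 ± 0.15 (edgeR adjusted p = 0.00821) in 2102 EP. TP53I3 shares exon bases with the antisense gene FAM228B, which had 296 counts against 1903 for TP53I3.

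TRIAP1, a small mitochondrial protein that opposes apoptosis, and ZMAT3, a zinc finger RNA-binding protein, each passed the test in a single line and in the test of the difference. In TCam-2, TRIAP1 had 117, 111 and 121 CPM with I-BRD9 and 169, 184 and 176 CPM with DMSO. In 2102 EP, TRIAP1 had 281, 261 and 226 CPM with I-BRD9 and 228, 255 and 226 CPM with DMSO. It fell by 0.60 ± 0.09 (SE, edgeR adjusted p = 9.11e-06) in TCam-2, where the groups were separate, against a change of 0.11 ± 0.08 (edgeR adjusted p = 0.314) in 2102 EP, where they overlapped; the difference was −0.72 ± 0.12 (edgeR adjusted p = 0.000194). ZMAT3 showed the reverse pattern of calls. In TCam-2, ZMAT3 had 30.8, 38.1 and 38.4 CPM with I-BRD9 and 39.5, 41.4 and 38.6 CPM with DMSO. In 2102 EP, ZMAT3 had 92.9, 73.3 and 67.6 CPM with I-BRD9 and 50.4, 44.6 and 60.2 CPM with DMSO. The 2102 EP groups stood clearly apart, whereas in TCam-2 the highest treated library lay just under the lowest control. ZMAT3 rose by 0.59 ± 0.12 (SE, edgeR adjusted p = 0.000699) in 2102 EP, against a change of −0.16 ± 0.13 (edgeR adjusted p = 0.384) in TCam-2, with a difference of −0.75 ± 0.18 (edgeR adjusted p = 0.00644).

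The other members with roles in cell death gave no call. BAX, the pore-forming effector of mitochondrial apoptosis, averaged 31.5 ± 4.37 CPM with I-BRD9 and 35.3 ± 0.89 CPM with DMSO in TCam-2, and 54.5 ± 4.79 and 50.9 ± 8.76 CPM in 2102 EP (SD, n = 3 each). Its groups overlapped in both lines, and its 95% intervals were −0.43 to 0.10 in TCam-2 and −0.16 to 0.35 in 2102 EP. EDA2R, a receptor for ectodysplasin of the tumour necrosis factor family, changed by −0.43 ± 0.18 (edgeR adjusted p = 0.076) in TCam-2 and −0.24 ± 0.18 (edgeR adjusted p = 0.33) in 2102 EP. TNFRSF10C, a decoy receptor for the death ligand TRAIL, had 1.88, 2.28 and 1.51 CPM with I-BRD9 and 3.07, 2.97 and 3.55 CPM with DMSO in TCam-2, separate groups that did not pass the test (−0.75 ± 0.37, edgeR adjusted p = 0.134). In 2102 EP all 6 TNFRSF10C values were below 1 CPM. The death receptor FAS had summed counts of 1 with I-BRD9 and 6 with DMSO in TCam-2, and 10 and 18 in 2102 EP, and shares exon bases with the antisense gene ACTA2. SPATA18, a mitochondrial quality-control protein, had 0 counts with I-BRD9 and 1 with DMSO in TCam-2, and 27 and 14 in 2102 EP. Neither gene passed the low-count filter.

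**Figure D3:**
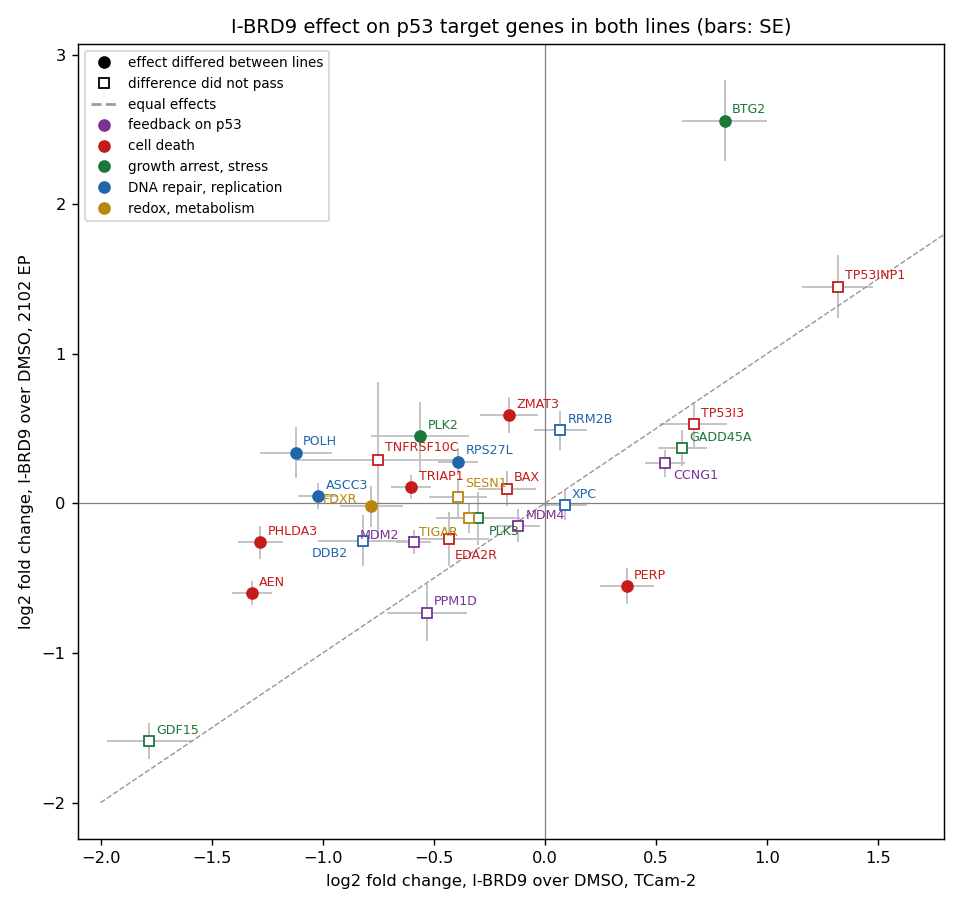
Log2 fold change (I-BRD9 over DMSO) of each of the 28 tested targets in TCam-2 (horizontal axis) and in 2102 EP (vertical axis), with bars of 1 SE, filled points where the lines differed by the test and a diagonal of equal change. BTG2 (0.81 in TCam-2, 2.56 in 2102 EP), POLH (−1.12, 0.34) and PERP (0.37, −0.55) lie far from the diagonal, whereas TP53INP1 and GDF15 lie close to it.

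Of the 5 targets with a role in growth arrest, BTG2 and GADD45A rose and GDF15 fell in both lines. Of all 15614 genes tested, 1289 rose in both lines and 1328 fell in both. In TCam-2, 15.3% of all genes rose and 16.5% fell, and in 2102 EP 18.2% rose and 18.6% fell. BTG2 (ENSG00000159388, chromosome 1, 203305491 to 203309602, plus strand) is an antiproliferative protein that recruits the deadenylase complex to messenger RNA. In TCam-2, BTG2 had 24.7, 24.3 and 35 CPM with I-BRD9 and 17.1, 15.6 and 15.3 CPM with DMSO. In 2102 EP, BTG2 had 12, 11.7 and 8.37 CPM with I-BRD9 and 0.915, 2.48 and 2.05 CPM with DMSO. The groups were separate in both lines, and the treated 2102 EP libraries remained below the untreated TCam-2 libraries. BTG2 rose by 0.81 ± 0.19 (SE, edgeR adjusted p = 0.00248) in TCam-2 and by 2.56 ± 0.27 (edgeR adjusted p = 9.98e-08) in 2102 EP, and the difference of −1.75 ± 0.33 passed the test (edgeR adjusted p = 0.000766).

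GADD45A, a stress sensor that binds PCNA and CDK1, rose in both lines. In TCam-2, GADD45A had 47.7, 48.1 and 40.4 CPM with I-BRD9 and 28.6, 31.1 and 29 CPM with DMSO. In 2102 EP, GADD45A had 41.6, 31.7 and 34.7 CPM with I-BRD9 and 26.7, 29.2 and 27.1 CPM with DMSO. Treated libraries were above controls in each line, by 0.62 ± 0.11 (SE, edgeR adjusted p = 0.000218) in TCam-2 and 0.37 ± 0.12 (edgeR adjusted p = 0.015) in 2102 EP. In 2102 EP the call was lost without DMSO replicate 1 (edgeR adjusted p = 0.052) or I-BRD9 replicate 1 (0.0755).

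GDF15 (ENSG00000130513, chromosome 19, 18374731 to 18389176, plus strand), a secreted stress cytokine of the TGF-beta superfamily that other stress pathways also induce, had the lowest fold change of the 28 targets in each line. In TCam-2, GDF15 had 2.27, 2.52 and 2.44 CPM with I-BRD9 and 8.5, 7.64 and 8.82 CPM with DMSO. In 2102 EP, GDF15 had 30.1, 23.7 and 24 CPM with I-BRD9 and 69.9, 87 and 76.6 CPM with DMSO. Treated libraries held well under the level of every control in both lines. GDF15 fell by 1.78 ± 0.19 (SE, edgeR adjusted p = 1.29e-07) in TCam-2 and by 1.59 ± 0.12 (edgeR adjusted p = 6.53e-10) in 2102 EP. The difference of −0.19 ± 0.22 did not pass the test, with a 95% interval of −0.65 to 0.27 (edgeR adjusted p = 0.645).

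PLK2 and PLK3 are polo-like kinases of the stress response. In TCam-2, PLK2 had 4.65, 6.73 and 4.87 CPM with I-BRD9 and 8.97, 6.58 and 8.33 CPM with DMSO. In 2102 EP, PLK2 had 6.14, 7.21 and 9.04 CPM with I-BRD9 and 6.06, 5.19 and 5.11 CPM with DMSO. The groups overlapped in TCam-2 and were narrowly separate in 2102 EP, with opposite signs: −0.56 ± 0.22 (SE, edgeR adjusted p = 0.0627) in TCam-2 and 0.45 ± 0.23 (edgeR adjusted p = 0.124) in 2102 EP. The TCam-2 change passed without DMSO replicate 2 (edgeR adjusted p = 0.0466) or I-BRD9 replicate 2 (0.0347). The difference of −1.01 ± 0.32 (edgeR adjusted p = 0.0378) was lost on leaving out any of 8 of the 12 libraries (edgeR adjusted p between 0.0575 and 0.103). PLK3 changed by −0.30 ± 0.19 (edgeR adjusted p = 0.241) in TCam-2 and −0.10 ± 0.18 (edgeR adjusted p = 0.715) in 2102 EP, with overlapping groups in both.

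Of the 6 targets with a role in DNA repair, 4 fell and none rose in TCam-2, and 2 rose and none fell in 2102 EP. Over all genes, 16.5% fell and 15.3% rose in TCam-2, and 18.6% fell and 18.2% rose in 2102 EP. By the test of the difference, 3 of the 6 had a lower change in TCam-2 and 3 did not pass. Of all genes, 7.19% had a lower change in TCam-2 by that test. ASCC3 (ENSG00000112249, chromosome 6, 100508194 to 100881372, minus strand) encodes a helicase of the activating signal cointegrator complex, which acts in alkylation repair and in clearing stalled ribosomes. In TCam-2, ASCC3 had 39.2, 40.7 and 37 CPM with I-BRD9 and 77.8, 81 and 78.1 CPM with DMSO. In 2102 EP, ASCC3 had 51.5, 45.3 and 45.7 CPM with I-BRD9 and 43.8, 44 and 49.6 CPM with DMSO. The treated TCam-2 libraries lay below every other library, while the 2102 EP groups overlapped. ASCC3 fell by 1.02 ± 0.09 (SE, edgeR adjusted p = 1.58e-08) in TCam-2, against a change of 0.05 ± 0.09 (edgeR adjusted p = 0.709) in 2102 EP, and the difference of −1.07 ± 0.13 passed the test (edgeR adjusted p = 4.78e-06).

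POLH (ENSG00000170734, chromosome 6, 43576150 to 43615660, plus strand) encodes DNA polymerase eta, which copies past ultraviolet lesions. In TCam-2, POLH had 12.2, 13 and 11.5 CPM with I-BRD9 and 24.6, 28 and 26.9 CPM with DMSO. In 2102 EP, POLH had 16.8, 14.3 and 10.8 CPM with I-BRD9 and 9.72, 11.9 and 11.4 CPM with DMSO. Treated libraries in TCam-2 fell under every control, and those in 2102 EP overlapped the controls. The changes were −1.12 ± 0.16 (SE, edgeR adjusted p = 9.24e-06) in TCam-2 and 0.34 ± 0.17 (edgeR adjusted p = 0.117) in 2102 EP, with a difference of −1.46 ± 0.23 (edgeR adjusted p = 0.000101). Without I-BRD9 replicate 3 the change in 2102 EP passed as an increase of 0.50 (edgeR adjusted p = 0.0231).

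DDB2 (ENSG00000134574, chromosome 11, 47214465 to 47239240, plus strand), the damage-recognition subunit of the ultraviolet-damaged DNA-binding complex, holds the paired decamers shown above. In TCam-2, DDB2 had 5.73, 4.93 and 4.76 CPM with I-BRD9 and 11.8, 7.75 and 7.84 CPM with DMSO. In 2102 EP, DDB2 had 17.2, 16.9 and 20.2 CPM with I-BRD9 and 24.8, 19.6 and 20.3 CPM with DMSO. The TCam-2 groups were separate and the 2102 EP groups overlapped. DDB2 fell by 0.82 ± 0.20 (SE, edgeR adjusted p = 0.00256) in TCam-2, against a change of −0.25 ± 0.17 (edgeR adjusted p = 0.259) in 2102 EP, and the difference of −0.57 ± 0.26 did not pass the test (edgeR adjusted p = 0.167).

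RPS27L, a ribosomal protein paralogue linked to p53 stability and the damage checkpoint, changed in opposite directions. In TCam-2, RPS27L had 305, 307 and 263 CPM with I-BRD9 and 386, 396 and 364 CPM with DMSO. In 2102 EP, RPS27L had 411, 342 and 393 CPM with I-BRD9 and 308, 288 and 348 CPM with DMSO. The treated libraries lay below the controls in TCam-2, while in 2102 EP the lowest treated library overlapped the highest control. RPS27L fell by 0.39 ± 0.09 (SE, edgeR adjusted p = 0.00159) in TCam-2 and rose by 0.28 ± 0.09 (edgeR adjusted p = 0.0157) in 2102 EP, and the difference was −0.67 ± 0.13 (edgeR adjusted p = 0.000637). The increase in 2102 EP was lost without DMSO replicate 1 (edgeR adjusted p = 0.052) or DMSO replicate 2 (0.101). Reads of RPS27L were partly shared with other genes, giving fractional counts in 4 libraries, so its level is uncertain.

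RRM2B, the p53-induced ribonucleotide reductase subunit that supplies deoxynucleotides outside S phase, rose in 2102 EP. In TCam-2, RRM2B had 35.9, 41.1 and 33.5 CPM with I-BRD9 and 41.1, 31.2 and 33.2 CPM with DMSO. In 2102 EP, RRM2B had 27.5, 24.7 and 26.8 CPM with I-BRD9 and 20.5, 19.1 and 16.7 CPM with DMSO. The groups overlapped in TCam-2 (0.07 ± 0.12, edgeR adjusted p = 0.732) and were separate in 2102 EP (0.49 ± 0.13, edgeR adjusted p = 0.00586). The difference of −0.42 ± 0.18 did not pass the test (edgeR adjusted p = 0.141). XPC, which recognises helix-distorting lesions, changed by 0.09 ± 0.10 (edgeR adjusted p = 0.54) in TCam-2 and −0.01 ± 0.10 (edgeR adjusted p = 0.952) in 2102 EP. XPC shares 318 exon bases with the opposite-strand gene LSM3, which had 29304 counts against 9704 for XPC, so its values are uncertain.

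The 3 metabolic targets all fell in TCam-2, where 16.5% of all genes fell. None passed the test in 2102 EP, where 36.8% of all genes passed in either direction. FDXR (ENSG00000161513, chromosome 17, 74862497 to 74873031, minus strand), the mitochondrial reductase that feeds electrons to steroid and iron-sulfur synthesis, had 16.1, 20.3 and 19.1 CPM with I-BRD9 and 31, 32.1 and 32 CPM with DMSO in TCam-2. In 2102 EP, FDXR had 23.5, 23.2 and 18.7 CPM with I-BRD9 and 19.2, 25.5 and 21.5 CPM with DMSO. The TCam-2 groups were separate and the 2102 EP groups overlapped. FDXR fell by 0.78 ± 0.14 (SE, edgeR adjusted p = 0.000118) in TCam-2, against a change of −0.02 ± 0.14 (edgeR adjusted p = 0.943) in 2102 EP, and the difference of −0.76 ± 0.19 passed the test (edgeR adjusted p = 0.00994). SESN1, a sestrin that restrains the growth kinase mTORC1, had 21.9, 19 and 21.2 CPM with I-BRD9 and 25, 29.9 and 26.6 CPM with DMSO in TCam-2. It fell by 0.39 ± 0.13 (edgeR adjusted p = 0.0224), a call that needed DMSO replicate 2 (0.119 without it) and I-BRD9 replicate 2 (0.0992 without it). SESN1 changed by 0.04 ± 0.13 (edgeR adjusted p = 0.832) in 2102 EP, where the groups overlapped, and the difference of −0.44 ± 0.18 did not pass (edgeR adjusted p = 0.127). TIGAR, a phosphatase that lowers glycolytic flux, had 57.2, 64.4 and 75.5 CPM with I-BRD9 and 82.2, 83.1 and 83.1 CPM with DMSO in TCam-2. It fell by 0.34 ± 0.10 (edgeR adjusted p = 0.0114), a call that needed I-BRD9 replicate 1 (0.0882 without it), and it changed by −0.10 ± 0.10 (edgeR adjusted p = 0.478) in 2102 EP. Its difference of −0.24 ± 0.14 did not pass either (edgeR adjusted p = 0.298). TIGAR shares 1711 exon bases with a same-strand gene that had 280 counts against 7705 for TIGAR.

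The test of the difference set the response in TCam-2 against that in 2102 EP directly. Of the 28 targets, 10 had a lower change in TCam-2 (BTG2, POLH, ASCC3, PHLDA3, PLK2, FDXR, ZMAT3, AEN, TRIAP1 and RPS27L), 1 a higher change (PERP) and 17 did not pass. Over all genes 13.1% passed this test (7.19% lower, 5.9% higher), and the median difference was −0.37 for the targets and −0.01 for all genes. The 10 arose in different ways. AEN fell in both lines and more in TCam-2; BTG2 rose in both and less in TCam-2; RPS27L fell in TCam-2 and rose in 2102 EP; the other 7 were called in 1 line or in neither. Across the 28 targets the changes in the 2 lines correlated at r = 0.67 (Spearman correlation 0.54), as a description over genes that share libraries, against 0.39 and 0.47 over all genes. Both lines gave a call for 11 targets (39.3%), of which 81.8% had the same direction; over all genes these shares were 18.5% and 90.6%.

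**Figure D4:**
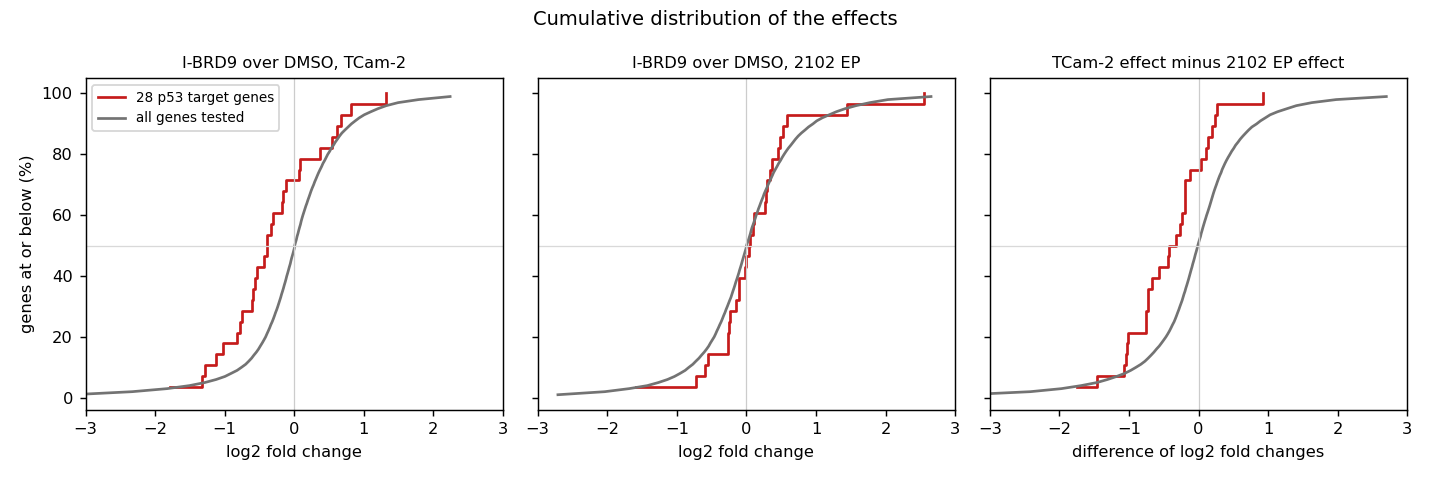
Cumulative share (vertical axis, percent) of genes with a log2 fold change (I-BRD9 over DMSO) up to the value on the horizontal axis, for the 28 tested targets and all 15614 genes tested, with 1 panel for each line and 1 for the difference between the lines. In TCam-2 the middle of the curve of the targets lies to the left of that of all genes, with medians of −0.39 and 0.01. No target lies below −1.78 in TCam-2, so the left shift does not hold in the lower tail. In 2102 EP the medians are 0.05 and 0.00.

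The summed level of the targets, given as a description, was 1541, 1529.8 and 1529 CPM with I-BRD9 and 2111, 2153 and 2108 CPM with DMSO in TCam-2. It was 1837, 1689 and 1679 CPM with I-BRD9 and 1711, 1793 and 1774 CPM with DMSO in 2102 EP. The groups did not overlap in TCam-2 and overlapped in 2102 EP; abundant members weigh most in such a sum.

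Between the lines under DMSO, 11 targets were higher and 7 lower in TCam-2 than in 2102 EP, against 31.7% and 30.8% of all genes (62.6% in either direction). PHLDA3 had the largest excess, 3.17 ± 0.11 (edgeR adjusted p = 7.44e-17), as its library values above show. BTG2 was higher by 3.14 ± 0.26 (edgeR adjusted p = 4.24e-10), TNFRSF10C by 2.49 ± 0.44 (edgeR adjusted p = 3.78e-05), TP53INP1 by 2.18 ± 0.20 (edgeR adjusted p = 3.37e-09) and POLH by 1.27 ± 0.16 (edgeR adjusted p = 4.26e-07). GDF15, lower in TCam-2, differed by −3.23 ± 0.14 (edgeR adjusted p = 2.97e-15), and the damage-recognition genes DDB2 and XPC, also lower, by −1.24 ± 0.18 (edgeR adjusted p = 2.4e-06) and −1.12 ± 0.10 (edgeR adjusted p = 1.73e-09). In that comparison 20 targets had groups that did not overlap (12 above, 8 below), against 67.6% of all genes. Line and culture medium (RPMI for TCam-2, DMEM for 2102 EP) cannot be told apart here.

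Under I-BRD9, 10 targets were higher and 9 lower in TCam-2, against 31.1% and 31.1% of all genes (62.2% in either direction), and 18 did not overlap (9 above, 9 below; 66.3% of all genes). PHLDA3 was still higher, by 2.14 ± 0.11 (edgeR adjusted p = 8.53e-14), as were TP53INP1 by 2.06 ± 0.17 (edgeR adjusted p = 5.34e-10) and BTG2 by 1.39 ± 0.20 (edgeR adjusted p = 2.63e-06). POLH, higher in TCam-2 under DMSO, differed by −0.19 ± 0.16 (edgeR adjusted p = 0.325) under I-BRD9, with a 95% interval of −0.53 to 0.15. PERP differed by −0.16 ± 0.12 (edgeR adjusted p = 0.253) under DMSO and was higher in TCam-2 by 0.75 ± 0.12 (edgeR adjusted p = 2.84e-05) under I-BRD9. AEN differed by −0.12 ± 0.08 (edgeR adjusted p = 0.23) under DMSO and, lower in TCam-2, by −0.84 ± 0.09 (edgeR adjusted p = 1.89e-08) under I-BRD9. The call for PPM1D under I-BRD9 (edgeR adjusted p = 0.0453) was lost on leaving out any of 9 of the 12 libraries (0.0546 to 0.208) and under all 8 other alternatives run (0.0523 to 0.101).

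A list of 25 regulators and partners of p53 gave 24 tested genes. In TCam-2 1 rose and 8 fell, beside 15.3% of all genes that rose and 16.5% that fell; in 2102 EP 3 rose and 8 fell, beside 18.2% and 18.6% of all genes. CHEK2, a kinase that phosphorylates p53 after DNA damage, fell by 1.25 ± 0.35 (SE, edgeR adjusted p = 0.00898) in TCam-2 and 1.22 ± 0.27 (edgeR adjusted p = 0.00112) in 2102 EP. RCHY1, or PIRH2, a ubiquitin ligase of p53, fell by 0.82 ± 0.23 (edgeR adjusted p = 0.00979) in TCam-2 and 1.49 ± 0.24 (edgeR adjusted p = 5.23e-05) in 2102 EP. ATR, the kinase of the replication stress response, rose by 0.81 ± 0.16 (edgeR adjusted p = 0.000311) in 2102 EP, against a change of 0.34 ± 0.15 (edgeR adjusted p = 0.0941) in TCam-2. CHEK1, the kinase that ATR activates, fell by 0.61 ± 0.12 (edgeR adjusted p = 0.00043) in TCam-2, against a change of −0.20 ± 0.11 (edgeR adjusted p = 0.159) in 2102 EP. L3MBTL1, a chromatin-binding protein, rose by 0.80 ± 0.27 (edgeR adjusted p = 0.0213) in 2102 EP, against a change of 0.65 ± 0.29 (edgeR adjusted p = 0.0875) in TCam-2. The call of L3MBTL1 in 2102 EP was lost without DMSO replicate 3 (edgeR adjusted p = 0.0672) or I-BRD9 replicate 1 (0.0957), and its change in TCam-2 passed without I-BRD9 replicate 2 (0.0364). TP63, a p53 relative of germ cells and epithelia, had 8 counts with I-BRD9 and 79 with DMSO summed over the 3 libraries in TCam-2, and 2 and 0 in 2102 EP. In TCam-2 the call of CHEK2 was lost without DMSO replicate 1 (edgeR adjusted p = 0.0647) or I-BRD9 replicate 2 (0.0511), and that of RCHY1 without I-BRD9 replicate 2 (0.0548). CHEK2 and RCHY1 share exon bases with antisense neighbours (HSCB and THAP6) of lower counts than their own, and CHEK1 shares 80 with the same-strand gene STT3A, which had 6989 counts against 3211. Leaving out TCam-2 I-BRD9 replicate 2 left 5 regulators lower in TCam-2.

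**Figure D5:**
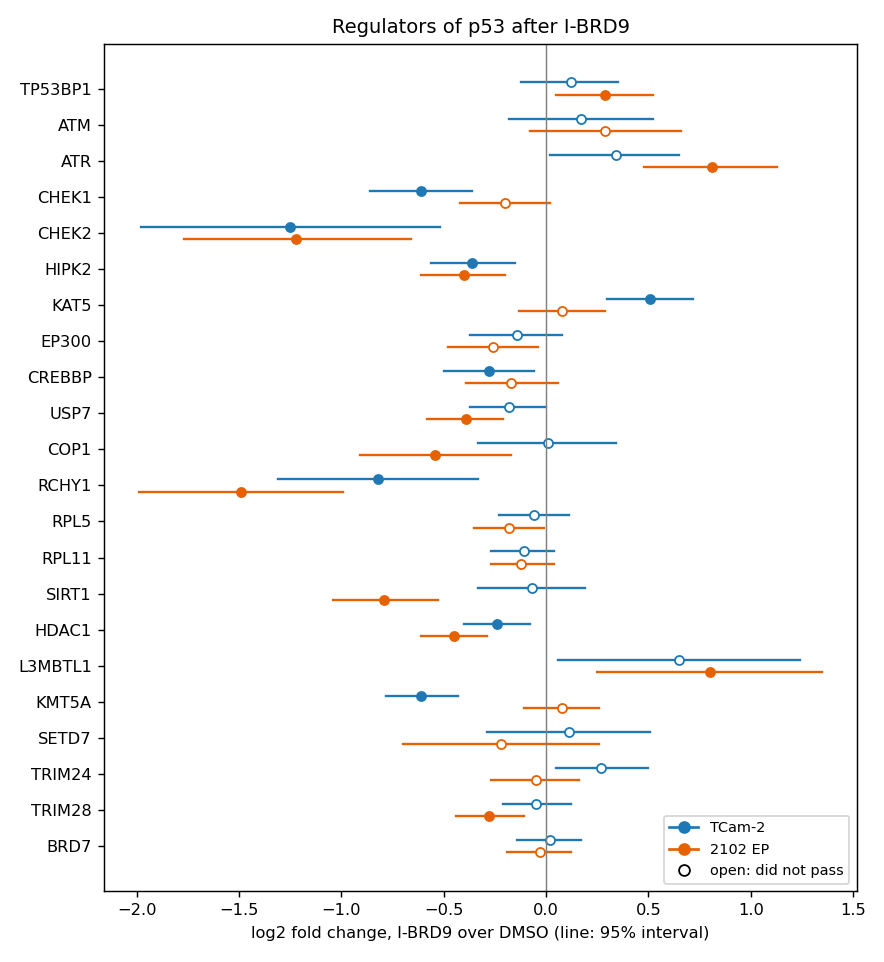
Log2 fold change (I-BRD9 over DMSO, with lines for the 95% interval and open points where the test did not pass) of 22 regulators of p53 in TCam-2 and in 2102 EP; TP63, CDKN2A and TP73 are left out for their low counts. CHEK2 (−1.25 in TCam-2, −1.22 in 2102 EP) lies well below 0 in both lines, and CHEK1 lies at −0.61 in TCam-2 and −0.20 in 2102 EP, a difference that did not pass the test.

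A further 40 known p53 targets, not among the 30, gave 37 tested genes, of which 8 rose and 7 fell in TCam-2 and 8 rose and 4 fell in 2102 EP. All genes tested gave 31.8% called in either direction in TCam-2 (15.3% higher, 16.5% lower) and 36.8% in 2102 EP (18.2% higher, 18.6% lower). CDKN1A, which encodes the cell cycle inhibitor p21, had 10.5, 11.9 and 12.3 CPM with I-BRD9 and 11.8, 13.1 and 11.5 CPM with DMSO in TCam-2. In 2102 EP, CDKN1A had 56, 44.8 and 46.6 CPM with I-BRD9 and 20.1, 27.2 and 20.3 CPM with DMSO. It rose by 1.12 ± 0.14 (SE, edgeR adjusted p = 9.7e-07) in 2102 EP, against a change of −0.07 ± 0.15 (edgeR adjusted p = 0.769) in TCam-2, with a difference of −1.19 ± 0.21 (edgeR adjusted p = 0.000271). PMAIP1, which encodes the BH3-only death protein NOXA, fell by 1.03 ± 0.11 (edgeR adjusted p = 8.29e-08) in 2102 EP, against a change of −0.18 ± 0.10 (edgeR adjusted p = 0.183) in TCam-2. SERTAD1, a transcriptional coregulator, rose by 1.07 ± 0.15 (edgeR adjusted p = 5.47e-06) in TCam-2 and 1.26 ± 0.15 (edgeR adjusted p = 6.06e-07) in 2102 EP. TP53I11, or PIG11, rose by 1.79 ± 0.21 (edgeR adjusted p = 9.1e-07) in TCam-2 and 0.64 ± 0.15 (edgeR adjusted p = 0.00194) in 2102 EP; it shares 74 exon bases with the opposite-strand gene TSPAN18, which had 4966 counts against 2125. In TCam-2, E2F7, a repressor of cell cycle genes, fell by 1.32 ± 0.27 (edgeR adjusted p = 0.000923), the tetraspanin CD82, with fractional counts in 5 libraries, rose by 1.20 ± 0.26 (edgeR adjusted p = 0.00109) and SUSD6 rose by 1.08 ± 0.30 (edgeR adjusted p = 0.00797). ARHGEF3, a guanine nucleotide exchange factor, rose by 0.68 ± 0.23 (edgeR adjusted p = 0.0231) in TCam-2 and 0.95 ± 0.22 (edgeR adjusted p = 0.00183) in 2102 EP; its call in TCam-2 was lost on leaving out any of 4 libraries (0.0501 to 0.135).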

How the data were processed

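Total RNA of the 12 samples was sequenced with the Lexogen QuantSeq 3′ kit, per the labels' protocols, so counts come from transcript ends and their level is not scaled by length. The table deposited by the authors holds estimated counts, 1 per gene and library; the submitters' processing notes name Trim Galore, STAR 2.7.11b, Salmon 1.9.0, R 4.2.0, DESeq2 and GRCh38, while the sources used here give neither the annotation nor the use of strand.

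Estimated counts were rounded, genes low in all groups were removed with filterByExpr (15614 of 63241 kept), and 4 group means were fitted to the 12 libraries with TMM scaling in edgeR 4.0.16 (glmQLFit, R 4.3.3; common biological coefficient of variation 0.127, 8 residual degrees of freedom). Contrasts were I-BRD9 against DMSO in each line, their difference, and TCam-2 against 2102 EP under each treatment. The script was tested on simulated data. Calls were made below an adjusted p of 0.05. Alternatives were other scalings, no filter, limma 3.58.1 (voom), DESeq2 1.42.0, blocks, only the libraries compared, and leaving out each library.

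Labels call the replicates biological without stating separate cultures, so p-values measure the spread between these samples. The target genes and lists were chosen with earlier results of these data known. Among regulators and further targets, the 4 called genes with the largest absolute fold change in each line are named, and 1 regulator is not reported here; BBC3, the TRAIL receptors and the further targets in the closing section were chosen after their values were seen. The main fit did not pair samples by replicate number, and whether the numbers mark pairs is not known.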

Additional observations from a re-analysis of the deposited data

Results flagged for a closer look

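Among the 28 tested targets, the change with I-BRD9 differed between the lines by the test of the difference itself for 11 genes. Given as the log2 fold change in TCam-2 minus that in 2102 EP, the difference was −1.75 for BTG2, −1.46 for POLH, −1.07 for ASCC3, −1.03 for PHLDA3, −1.01 for PLK2, −0.76 for FDXR, −0.75 for ZMAT3, −0.72 for AEN, −0.72 for TRIAP1, −0.67 for RPS27L and 0.92 for PERP. Negative values mean a lower change in TCam-2. Over all genes, 13.1% passed the same test.

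Among the 37 tested further p53 targets, the change was lower in TCam-2 for 6 genes and higher for 4. The difference was −1.19 for CDKN1A (edgeR adjusted p = 0.000271), 0.84 for PMAIP1 (edgeR adjusted p = 0.000308), 1.14 for TP53I11 (edgeR adjusted p = 0.00489) and 0.94 for BBC3 (edgeR adjusted p = 4.59e-05). It was −1.12 for PIDD1 (edgeR adjusted p = 0.00375), −0.96 for TNFRSF10A (edgeR adjusted p = 0.0342), −0.84 for CYFIP2 (edgeR adjusted p = 0.000712), −0.76 for IKBIP (edgeR adjusted p = 0.0173), −0.69 for IER5 (edgeR adjusted p = 0.000514) and 0.49 for SESN2 (edgeR adjusted p = 0.03). The call was lost on leaving out any of 8 libraries for SESN2 (0.0559 to 0.0913), any of 8 for TNFRSF10A (0.0508 to 0.106) and any of 4 for IKBIP (0.0527 to 0.0581), and TNFRSF10A also lost it with a block of library codes (0.0503). PIDD1 shares 107 exon bases with the opposite-strand gene RPLP2, which had 194791 counts against 938, so its value is uncertain. The cause of these differences was not tested.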

How the results depend on the processing

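No count of genes or targets called moved by over 1.5 times under any alternative run, other than small counts of regulators. Leaving out each library in turn gave 4150 to 5462 called genes in TCam-2, 4743 to 5761 in 2102 EP and 1652 to 2006 for the difference, with 5 to 6 targets higher and 12 to 13 lower in TCam-2, 6 to 8 higher and 4 to 6 lower in 2102 EP, and 1 higher and 9 to 11 lower for the difference. Between lines it gave 9170 to 10214 called genes under DMSO (9 to 12 targets higher, 6 to 7 lower) and 9169 to 9858 under I-BRD9 (7 to 10 higher, 9 to 12 lower). Over single genes, 4905 values kept direction and call, 131 lost the call, 32 gained it and 39 changed sign. Medians of all genes stayed within 0.05 of 0 under every scaling.

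Deviations of same-numbered samples correlated at 0.16, 0.034 and 0.127 in TCam-2 and −0.119, 0.096 and −0.079 in 2102 EP. Samples with unlike numbers gave −0.181 to 0.048 in TCam-2 and −0.119 to 0.175 in 2102 EP. With so few pairs, these values cannot decide whether the numbers pair the samples. By library code, TCam-2 I-BRD9 replicate 1 went with DMSO replicate 2, and I-BRD9 replicate 2 with DMSO replicate 1. With a replicate block, 4714 genes were called in TCam-2, 5512 in 2102 EP and 1836 for the difference, and PERP lost its call in TCam-2 (adjusted p = 0.0545). The difference of PLK2 was lost under that block (0.0598), with no filter (0.0567) and with a block of library codes (0.0516), and MDM2 gained a difference under the last (0.0498). PPM1D in TCam-2 was lost with no filter (0.0593), and with limma TNFRSF10C passed (0.0497) and CHEK2 did not (0.051) in TCam-2. The cause was not tested.

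Every change of sign was in a value that was not called. The one furthest from 0 was the difference of ARHGEF3 between the lines, −0.26 in the main fit. On leaving out a library, log2 values in the difference between lines ranged as follows: MDM4 −0.05 to 0.10, TP53INP1 −0.24 to 0.04, L3MBTL1 −0.48 to 0.04, BRD9 −0.03 to 0.13, ARHGEF3 −0.46 to 0.06, CHEK2 −0.29 to 0.26. On leaving out a library, log2 values in 2102 EP ranged as follows: BAX −0.04 to 0.18, PLK3 −0.22 to 0.03, XPC −0.11 to 0.08, SESN1 −0.03 to 0.13, FDXR −0.10 to 0.10, IKBIP −0.01 to 0.17. On leaving out a library, log2 values in TCam-2 ranged as follows: RRM2B −0.02 to 0.19, TNFRSF10D 0 to 0.23. On leaving out a library, log2 values in the lines under DMSO ranged as follows: TP53I3 −0.07 to 0.15, ARHGEF3 −0.40 to 0.12, E2F7 −0.19 to 0.15. On leaving out a library, log2 values in the lines under I-BRD9 ranged as follows: SERTAD1 −0.04 to 0.07. With upper-quartile scaling, 2102 EP had XPC 0.03 and FDXR 0.02. With a library-code block, the difference between lines had CHEK2 0.01. With limma voom, the difference between lines had CHEK2 0.01. With a library-code block, the lines under DMSO had E2F7 −0.02.

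Low counts limit PPM1D, PLK2, TNFRSF10C and 2102 EP BTG2, where 3 counts equal 0.297 to 0.409 CPM. They also limit GDF15 in TCam-2 with I-BRD9 (23, 21 and 21 counts) and TP53INP1 in 2102 EP with DMSO (22, 22 and 20). CHEK2 had 20, 8 and 19 counts in TCam-2 with I-BRD9. In TCam-2 with DMSO, counts were also low for SUSD6 (21, 44 and 21), CD82 (23, 15 and 8) and TP53I11 (29, 24 and 18). FAS and SPATA18 could not be tested. Intervals and floors cover the spread of these libraries and counting error only.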

Other observations

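BBC3, which encodes the BH3-only death protein PUMA, moved in opposite directions. In TCam-2, BBC3 had 64.4, 65.1 and 54 CPM with I-BRD9 and 40.6, 42.5 and 37.1 CPM with DMSO. In 2102 EP, BBC3 had 55.2, 52.3 and 53 CPM with I-BRD9 and 62.6, 72.2 and 66.9 CPM with DMSO. Its change was 0.61 ± 0.10 (SE, edgeR adjusted p = 4.81e-05) in TCam-2 and −0.33 ± 0.10 (edgeR adjusted p = 0.0104) in 2102 EP, where the call was lost without DMSO replicate 2 (0.0628).

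The other TRAIL receptor genes, which neighbour TNFRSF10C in the genome, were measured beside it. TNFRSF10D, a decoy receptor, had 24.1, 21.4 and 25.2 CPM with I-BRD9 and 18.7, 21.3 and 25.6 CPM with DMSO in TCam-2, and 1.36, 1.1 and 1.00 CPM with I-BRD9 and 1.03, 1.41 and 1.41 CPM with DMSO in 2102 EP. Under DMSO it was higher in TCam-2 by 4.08 ± 0.22 (SE, edgeR adjusted p = 2.19e-13), beside 2.49 ± 0.44 (edgeR adjusted p = 3.78e-05) for TNFRSF10C. The signalling receptors differed by 1.81 ± 0.21 (TNFRSF10A, edgeR adjusted p = 1.12e-07) and 1.85 ± 0.19 (TNFRSF10B, edgeR adjusted p = 1.62e-08); TNFRSF10B shares 67 exon bases with the opposite-strand gene RHOBTB2, which had 2792 counts against 1199. With I-BRD9 in TCam-2, TNFRSF10A fell by 0.60 ± 0.19 (edgeR adjusted p = 0.0189) and TNFRSF10B by 0.53 ± 0.17 (edgeR adjusted p = 0.0228), while TNFRSF10D changed by 0.11 ± 0.16 (edgeR adjusted p = 0.649). Each of the first 2 calls was lost on leaving out any of 4 libraries (0.0556 to 0.0705 for TNFRSF10A, 0.0728 to 0.122 for TNFRSF10B). In 2102 EP the changes were 0.35 ± 0.23 (edgeR adjusted p = 0.236) for TNFRSF10A, −0.32 ± 0.21 (edgeR adjusted p = 0.253) for TNFRSF10B and −0.16 ± 0.31 (edgeR adjusted p = 0.766) for TNFRSF10D. The difference between the lines was −0.96 (edgeR adjusted p = 0.0342) for TNFRSF10A and −0.21 (edgeR adjusted p = 0.696) for TNFRSF10B.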
